A study of Mus musculus with 24 samples.

Results

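The nuclear genes for the subunits of the mitochondrial respiratory chain were followed in 24 RNA sequencing libraries of mouse mammary tumours. Members were taken by symbol from the authors' deposited table of 14019 genes: those beginning Nduf, Uqcr, Cox4, Cox5, Cox6, Cox7, Cox8 or Atp5, together with Sdha, Sdhc, Sdhd and Cycs. Pseudogenes were left out, as was the stretch of chromosome 4 from 123280687 to 143280687 (GRCm39) around Nr0b2, which removed Ndufs5. This gave 87 members of the 46318 genes in the count files, spread over 19 chromosomes. Complex I supplied 36 subunits, of which 7 were core and 29 accessory, and 8 further members were its assembly factors of the Ndufaf family. Complex II supplied 3 members, complex III 8, cytochrome c 1, complex IV 14 and complex V 17. All 87 passed the filter on low counts.

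Tumours of NR0B2-/- PyMT+ mice (genotype label SHP KO, 12 libraries, KO 1 to KO 12) were set against those of NR0B2+/+ PyMT+ mice (SHP WT, 12 libraries, WT 13 to WT 24). Nr0b2 encodes SHP, an orphan nuclear receptor that represses transcription. Both groups carry the polyoma middle T oncogene under the MMTV promoter, which is active mainly in mammary epithelium, and tumours were taken at a volume of 2000 mm3. The labels do not say that the libraries are from different animals, and p-values then cover only the variation among tumours. In whole tumours fewer cells of a type and less RNA per cell cannot be told apart.

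The respiratory chain sits in the inner mitochondrial membrane. Complexes I and II pass electrons from NADH and succinate to ubiquinone, complex III passes them on to cytochrome c, and complex IV delivers them to oxygen, while complexes I, III and IV pump protons that drive ATP synthesis by complex V. Most subunits are encoded in the nucleus and imported, and a small set is encoded in the mitochondrial genome. Transcription of the nuclear set is commonly linked to the factors NRF1, GABP (an ETS factor), YY1, ERR alpha and SP1, with coactivators of the PGC-1 family. Among tissues, skeletal muscle and brown fat are rich in these transcripts, and muscle uses its own isoforms of several complex IV subunits.

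Promoter windows were available for 73 of the 87 members, running from 250 bases before to 50 bases after the gene start (RefSeq, build GRCm38.p6, which is not the GRCm39 build of the counts). Each window was searched on both strands for the exact letters of the NRF1 palindrome (GCGCA followed at once by its reverse complement), CCGGAAG (ETS), AAGATGGCG (YY1), AAGGTCA (ERR) and GGGCGG (SP1). The NRF1 letters stood in the windows of 7 members, 9.59% of those with a window, against 1.07% of 27025 genes. The ETS letters stood in 18 members (24.7%, against 9.93% of all genes), and the YY1 letters in 8 (11%, against 1.64%). The ERR letters stood in 7 members (9.59%, against 5.38%) and the SP1 letters in 33 (45.2%, against 38.2%). A match describes these letters and is not a binding site, and the median window held 58.8% G and C in members, against 52.7% over all windows. The windows below belong to the member with the smallest p of each of complexes I, II and V among those with a window, to Cycs, and to Atp5k, added after the matches were seen because it held the NRF1, ETS and ERR letters together. Capitals mark matches, and each window is written 5′ to 3′ on the gene's strand.
Ndufb8 (chr19:44555393-44555692, minus strand): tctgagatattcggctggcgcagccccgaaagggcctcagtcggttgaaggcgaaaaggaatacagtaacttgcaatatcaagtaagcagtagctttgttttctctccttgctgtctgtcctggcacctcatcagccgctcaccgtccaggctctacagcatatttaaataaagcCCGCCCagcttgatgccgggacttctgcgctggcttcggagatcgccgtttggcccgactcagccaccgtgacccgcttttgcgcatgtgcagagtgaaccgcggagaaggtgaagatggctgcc
Sdhd (chr9:50603800-50604099, minus strand): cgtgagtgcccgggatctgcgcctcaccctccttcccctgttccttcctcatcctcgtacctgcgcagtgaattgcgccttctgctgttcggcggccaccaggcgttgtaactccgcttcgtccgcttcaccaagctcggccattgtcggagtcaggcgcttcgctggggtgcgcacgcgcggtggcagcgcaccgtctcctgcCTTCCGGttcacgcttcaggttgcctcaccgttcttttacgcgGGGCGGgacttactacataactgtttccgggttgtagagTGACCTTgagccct
Cycs (chr6:50566520-50566819, minus strand): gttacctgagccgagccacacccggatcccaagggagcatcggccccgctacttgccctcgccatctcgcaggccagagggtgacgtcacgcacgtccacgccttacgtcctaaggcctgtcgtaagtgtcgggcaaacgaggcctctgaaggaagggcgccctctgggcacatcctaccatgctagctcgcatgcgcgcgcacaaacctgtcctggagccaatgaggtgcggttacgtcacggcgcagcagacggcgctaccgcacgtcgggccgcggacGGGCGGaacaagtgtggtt
Atp5pb (chr3:105959214-105959513, minus strand): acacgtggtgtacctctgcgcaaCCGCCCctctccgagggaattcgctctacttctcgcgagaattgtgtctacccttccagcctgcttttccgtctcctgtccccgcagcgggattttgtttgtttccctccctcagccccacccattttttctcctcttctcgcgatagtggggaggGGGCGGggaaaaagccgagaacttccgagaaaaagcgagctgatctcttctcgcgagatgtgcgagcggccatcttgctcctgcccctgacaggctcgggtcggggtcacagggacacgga
Atp5k (chr5:108434350-108434649, minus strand): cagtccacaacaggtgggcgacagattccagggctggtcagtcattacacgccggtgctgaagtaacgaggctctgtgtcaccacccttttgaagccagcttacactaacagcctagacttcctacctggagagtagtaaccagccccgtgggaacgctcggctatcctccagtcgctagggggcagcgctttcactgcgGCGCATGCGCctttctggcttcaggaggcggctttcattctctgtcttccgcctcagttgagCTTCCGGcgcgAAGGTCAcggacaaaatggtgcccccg
The Sdhd window held 1 match each of ETS, ERR and SP1, that of Ndufb8 and that of Cycs held SP1 only, and that of Atp5pb held SP1 on both strands. The windows of Uqcrfs1 and Ndufa4, the corresponding members of complexes III and IV, held none of these letters.

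Libraries held 18789250 to 38022182 counted reads, so 3 reads corresponded to between 0.0789 and 0.16 CPM (reads scaled to a common library size), and the 87 members took between 0.903% and 1.94% of the reads. Nr0b2 itself went against the labels: the 12 libraries labelled KO held 182 reads, each at least 3, and those labelled WT held 1, so directions below follow the labels and not a measured loss, and KO and WT libraries mean those so labelled. WT 21 and WT 24 had levels of Ndufs5 and of its pseudogene Ndufs5-ps otherwise seen in libraries labelled KO. KO 12 stood apart from the other 23 libraries. In it the median of all tested genes shorter than 1000 bases lay 1.00 above their mean on the log2 scale, and its tumour epithelium markers had the highest sum (9460 CPM, against a median of 4654 CPM in WT libraries) and its fibroblast markers the lowest. KO 11 also stood apart, with the highest sums of skeletal muscle markers (7090 CPM, against 2.21 to 677 CPM in WT libraries), adipocyte markers (3089 CPM, against 12.3 to 793 CPM) and brown adipocyte markers (397 CPM, against 4.04 to 16.3 CPM), and the lowest epithelial sum. It also ranked first in macrophage, T cell, B cell, fibroblast and erythroid markers, with T cell and B cell sums of 81.2 and 170 CPM, against at most 15.7 and 24.3 CPM in WT libraries. All 8 epithelial markers were detected in every library. Results are therefore given with and without KO 12, and where it matters without KO 11.

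Transcripts of the respiratory chain were slightly and broadly higher in libraries labelled KO, but no member passed the test. In edgeR's quasi-likelihood fit over 15820 genes, 0 of 87 members had an adjusted p under 0.05, where 50 genes of any kind did (0.316% of those tested). The smallest adjusted p was 0.0541, for Atp5pb, and 5 members were under 0.1. At an unadjusted p under 0.05, 55 members (63.2%) were higher in KO libraries, where 10% of tested genes were, and 0 were lower, where 8.9% of tested genes were. Of tested genes under 1000 bases, 23.9% were higher at that p, as were 35 of the 45 members of that length. The log2 change, KO over WT, was positive for 85 members and had a median of 0.28, beside a median of 0.0075 over all tested genes. DESeq2 called 9 members (2.64% of all genes), namely Atp5k, Atp5md, Atp5pb, Ndufa5, Ndufb5, Ndufb8, Ndufs1, Sdhd and Uqcrfs1. The voom method of limma called 3, Atp5k, Ndufb8 and Sdhd (0.436% of all genes). Without WT 21 and WT 24, again 55 members were higher at an unadjusted p under 0.05 (8.56% of tested genes), none was called, and the median log2 change was 0.31. Markers of skeletal muscle and of erythroid cells also had higher levels in KO libraries, though none passed the adjusted test. At an unadjusted p under 0.05, 9 of 10 tested skeletal muscle markers were higher and 0 lower, with summed levels of 2.05, 242 and 7090 CPM in KO libraries (lowest, median, highest) and 2.21, 57.2 and 677 CPM in WT libraries. All 5 erythroid markers were higher at that p, with sums of 55.4, 189 and 1332 CPM in KO libraries and 76.5, 125 and 220 CPM in WT libraries. With muscle and adipocyte scores as covariates, 52 of 87 members were higher at an unadjusted p under 0.05 (11.3% of tested genes), with a median log2 change of 0.28. Without KO 11, 0 of 10 muscle and 1 of 5 erythroid markers were higher at that p, as were 51 members (8.74% of tested genes) with a median of 0.27. The part of erythroid cells was not tested.

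The size of this difference depended on KO 12. Without that library, 43 of 87 members were higher at an unadjusted p under 0.05 (8.66% of tested genes), and the median log2 change was 0.15. Of tested genes under 1000 bases, 17.9% were higher at that p in this fit, with a median of 0.06. Of the 45 members of that length 26 were, with a median of 0.17. In that fit edgeR called 4 members at an adjusted p under 0.05, Atp5k, Atp5pb, Ndufb5 and Ndufb8 (0.433% of tested genes). Atp5pb and Ndufb5 both lie on chromosome 3, and their levels in KO 9 and KO 10 are given with complex V. Without both KO 11 and KO 12, 37 members were higher at that unadjusted p (6.66% of tested genes), none was called, and the median was 0.11. Members are short genes, with a median exon length of 949 bases, against 3643 bases over all tested genes, and 45 of them (51.7%) are under 1000 bases, against 6.46% of tested genes. With all 24 libraries, the 1022 tested genes under 1000 bases had a median log2 change of 0.20. With offsets that remove a trend on length in each library, 31 members were higher at an unadjusted p under 0.05 (8.8% of tested genes), with a median of 0.13. With offsets and without KO 12 these values were 27 members (8.47% of tested genes) and 0.10.

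**Figure D1:**
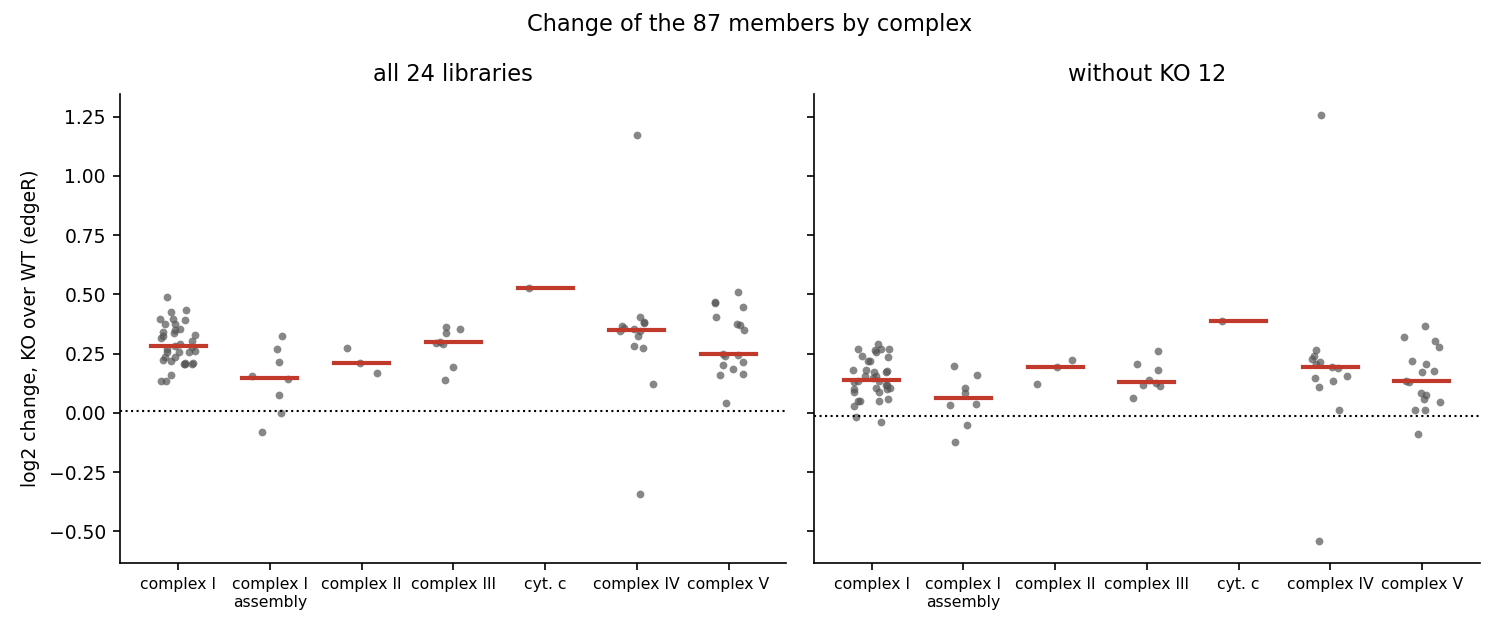
Log2 change of each member, KO over WT from the edgeR fit, by complex, with all 24 libraries on the left and without KO 12 on the right. Red bars are medians of the members and the dotted line is the median of all tested genes, 0.0075 on the left and -0.013 on the right. The median of every complex is lower on the right, and Cox8b is the highest point.

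Complex I takes electrons from NADH through a matrix arm of core iron-sulphur subunits. Its 7 nuclear core members had a median log2 change of 0.26, and 4 of them were higher at an unadjusted p under 0.05, but none passed the adjusted test; without KO 12 the median was 0.13 and 2 were. Ndufs1, the large iron-sulphur subunit near the NADH end, had the smallest p. Its levels were 86.7, 102 and 150 CPM in KO libraries (lowest, median, highest) and 73.7, 84.5 and 93.9 CPM in WT libraries. All 12 KO libraries lay above the WT median and 9 above the highest WT library, and the top value was in KO 11, not KO 12. The log2 change was 0.28 ± 0.07 (SE, n = 12 each; edgeR adjusted p = 0.0770) and 0.27 without KO 12. Ndufs7, a core subunit next to the quinone site, had 47.0, 56.3 and 137 CPM in KO libraries, against 39.4, 50.3 and 58.2 CPM in WT libraries. Here 4 KO libraries exceeded every WT library, led by KO 12 and KO 11, and the log2 change of 0.34 ± 0.14 (edgeR adjusted p = 0.197) was 0.18 without KO 12. Ndufv2, of the NADH-oxidising end, had the highest core level per length (87.2 CPM per kb) and a log2 change of 0.21 ± 0.12, or 0.09 without KO 12. Ndufs8, the lowest in change at 0.16 ± 0.11, came to 0.03 without KO 12.

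The 29 accessory subunits surround that core without carrying electrons. All 29 had positive log2 changes, from 0.13 to 0.49 with a median of 0.30, and the unadjusted p was under 0.05 for 19. Without KO 12, 27 were positive, the median was 0.16 and 16 were under that p. Ndufb8, in the membrane arm, had 115, 135 and 254 CPM in KO libraries and 98.8, 113 and 130 CPM in WT libraries. Every KO library lay above the WT median and 7 above the highest WT value, which came from WT 19. Its log2 change was 0.37 ± 0.10 (edgeR adjusted p = 0.0910), and without KO 12 it was 0.27 with an adjusted p of 0.0438. Ndufa5, in the matrix arm, had 46.9, 57.1 and 123 CPM in KO libraries and 39.5, 44.3 and 55.4 CPM in WT libraries. Its ranges overlapped, with 7 KO libraries above all WT libraries, and its log2 change was 0.43 ± 0.12 (edgeR adjusted p = 0.102). Ndufb9, a membrane arm subunit, had the highest accessory level per length (222 CPM per kb), at 134, 157 and 347 CPM in KO libraries and 105, 133 and 180 CPM in WT libraries. All 12 KO libraries exceeded the WT median, but KO 12 alone exceeded the highest WT library, and the log2 change of 0.38 ± 0.12 was 0.23 without it. Ndufv3, a small subunit at the tip of the matrix arm, had a KO median of 64.3 CPM, below the WT median of 66.5 CPM. Its log2 change of 0.13 ± 0.14 was the smallest of the accessory set and was -0.04 without KO 12.

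Within the accessory set, the 13 subunits named Ndufb and Ndufc, which lie in the membrane arm, had a median log2 change of 0.32, and 11 of them were higher at an unadjusted p under 0.05. The 12 named Ndufa had a median of 0.24, and 5 of them were. Of all tested genes 10% were higher at that p, and of those under 1000 bases 23.9%. The median lengths of the Ndufb and Ndufc set and of the Ndufa set were 687 and 918.5 bases. Without KO 12 the medians of the log2 change were 0.17 and 0.11, with 9 and 5 members. With length-trend offsets they were 0.12 and 0.08, with 6 and 2 members. The difference between these sets of genes was not tested. Ndufb4 is uncertain, since it is low (7.53 CPM at the WT median) and reads placed at more than 1 position, as from close copies, were not counted.

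The 8 Ndufaf assembly factors build complex I but do not stay in it. They were low, with a median of 11.1 CPM per kb, beside 76.8 CPM per kb for complex I subunits, and had a median log2 change of 0.15. Of these, 2 were higher at an unadjusted p under 0.05. Without KO 12 the median was 0.06, 6 of the 8 were positive and 1 was under that p. Ndufaf4, which acts on the early quinone module, had 18.5, 24.1 and 36.7 CPM in KO libraries and 18, 20.6 and 25.1 CPM in WT libraries. Ndufaf2, a late chaperone of the matrix arm, had 13.8, 17.7 and 42.9 CPM in KO libraries and 11.9, 16.4 and 18.1 CPM in WT libraries. For each, 5 KO libraries exceeded all WT libraries and the others overlapped, with log2 changes of 0.27 ± 0.09 for Ndufaf4 and 0.32 ± 0.14 for Ndufaf2 (edgeR adjusted p = 0.156 and 0.216), and without KO 12 0.20 for Ndufaf4 and 0.16 for Ndufaf2. Ndufaf8, the partner of Ndufaf5, was the most abundant per length (39.2 CPM per kb), with a log2 change of 0.14 ± 0.13, or 0.04 without KO 12. Ndufaf6, needed early in assembly, had a median of 8.59 CPM in KO libraries and 9.41 CPM in WT libraries, with a log2 change of -0.08 ± 0.17, or -0.12 without KO 12.

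Complex II, succinate dehydrogenase, links the citric acid cycle to the chain and pumps no protons. Its 3 members had log2 changes from 0.17 to 0.27, all at an unadjusted p under 0.05, with a median of 0.21 and, without KO 12, 0.19. The iron-sulphur subunit Sdhb was not among the symbols taken and is not described here. Sdhd, a membrane anchor, had 130, 151 and 210 CPM in KO libraries and 118, 130 and 142 CPM in WT libraries. Of the KO libraries 12 lay above the WT median and 10 above the highest WT library, with a log2 change of 0.27 ± 0.07 (edgeR adjusted p = 0.0767). Sdha, the flavoprotein that oxidises succinate, had 286, 315 and 505 CPM in KO libraries and 260, 285 and 307 CPM in WT libraries. Here too 12 KO libraries lay above the WT median, with KO 11 far above the rest, and the log2 change was 0.21 ± 0.07 (edgeR adjusted p = 0.162). Sdhc, the other anchor, had 143, 169 and 224 CPM in KO libraries and 140, 151 and 168 CPM in WT libraries, with 6 KO libraries above all WT libraries and a log2 change of 0.17 ± 0.06 (edgeR adjusted p = 0.167). As a mean of centred log2 CPM over the 3 genes, KO libraries ran from -0.07 to 0.48 with a median of 0.05, and WT libraries from -0.21 to -0.0055 with a median of -0.09. On that scale 9 KO libraries lay above every WT library. Without KO 11 and KO 12 the median log2 change was 0.11 and all 3 were still at an unadjusted p under 0.05. With length-trend offsets the median was 0.16 and 2 of the 3 were, as with offsets and without KO 12, and Sdhc had a log2 change of 0.05 with offsets.

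Complex III oxidises ubiquinol. Its 8 members had a median log2 change of 0.30, 0.13 without KO 12, and the unadjusted p was under 0.05 for 4 of them. Uqcrfs1, the Rieske iron-sulphur protein, had 157, 180 and 341 CPM in KO libraries and 136, 158 and 181 CPM in WT libraries. The top values were in KO 12 and KO 11, 6 KO libraries exceeded all WT libraries, and the log2 change was 0.36 ± 0.10 (edgeR adjusted p = 0.0972). Uqcrh, the acidic hinge protein that helps cytochrome c dock, was the most abundant per length (358 CPM per kb). It had 171, 197 and 421 CPM in KO libraries and 151, 168 and 200 CPM in WT libraries, with every KO library above the WT median and a log2 change of 0.34 ± 0.12 (edgeR adjusted p = 0.151), or 0.21 without KO 12. Uqcrc2, a core protein, had 160, 180 and 248 CPM in KO libraries and 146, 169 and 217 CPM in WT libraries, with overlapping groups and a log2 change of 0.14 ± 0.08. Its highest library was KO 2, and KO 12 was only 1.06 times the WT median.

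Cycs, the somatic cytochrome c that carries electrons from complex III to complex IV, had 23.3, 46.8 and 96.0 CPM in KO libraries and 19.6, 33.8 and 41.0 CPM in WT libraries. The KO libraries were divided, 8 above the highest WT library and 3 below the WT median. The log2 change was 0.53 ± 0.17 (edgeR adjusted p = 0.145), and 0.39 without KO 12.

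**Figure D2:**
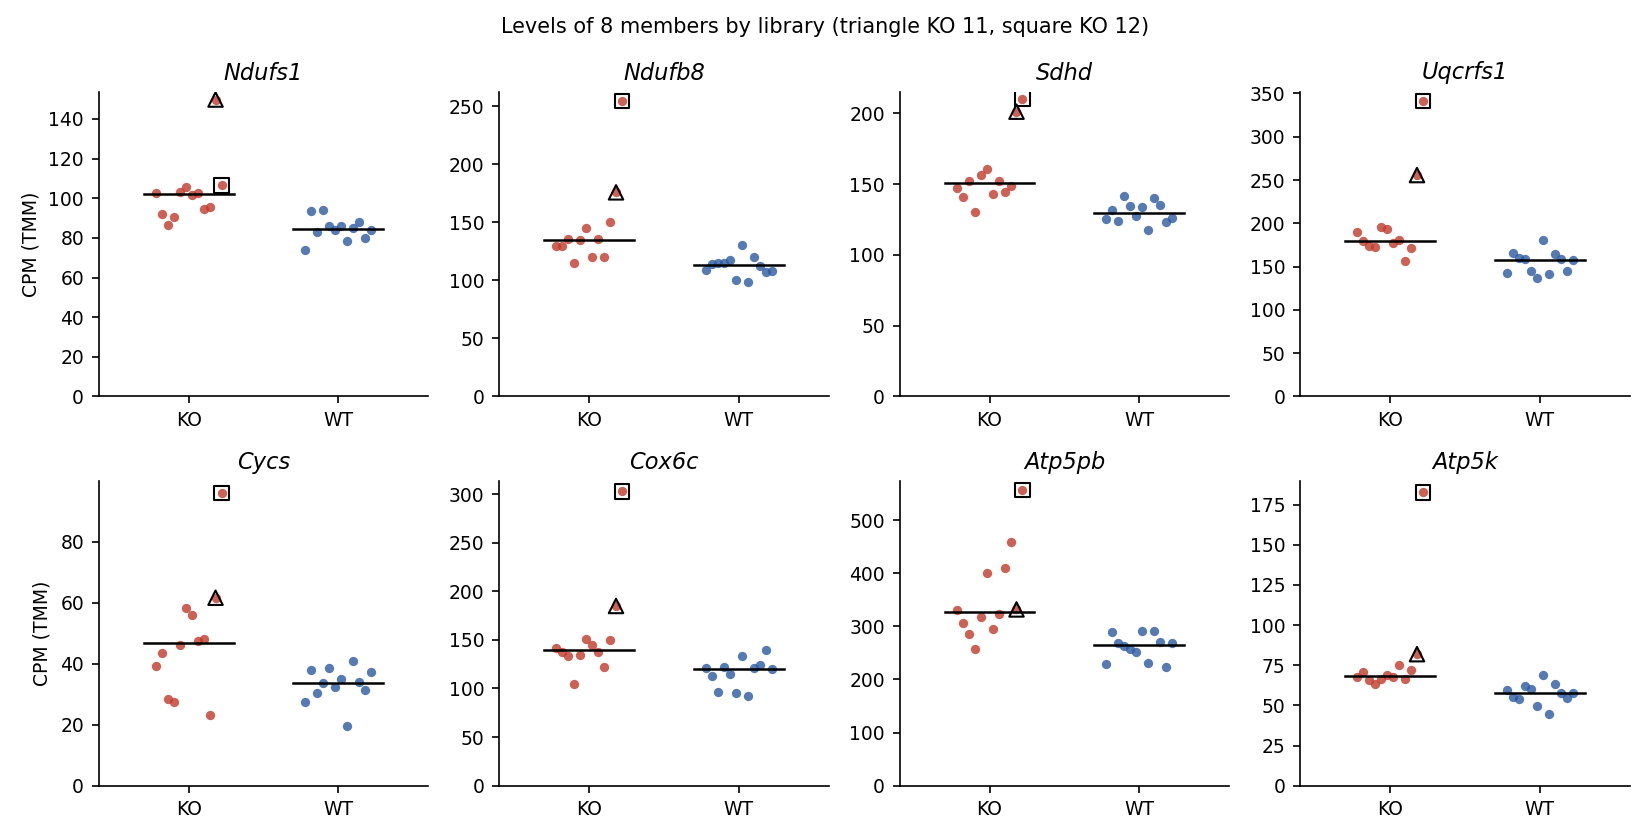
TMM-scaled CPM of 8 members in each library, KO left of WT, with black lines at the medians, a triangle around KO 11 and a square around KO 12. The groups overlap for each gene, KO 12 is highest for all but Ndufs1, and Ndufs1 is highest in KO 11 at 150 CPM.

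Complex IV, cytochrome c oxidase, had a median log2 change of 0.35 over 14 members and 0.19 without KO 12, and 11 members were higher at an unadjusted p under 0.05. Cox6c, a small membrane subunit, had 105, 139 and 303 CPM in KO libraries and 92.2, 120 and 139 CPM in WT libraries. Of the KO libraries 11 lay above the WT median and 6 above the highest WT library, with a log2 change of 0.40 ± 0.12 (edgeR adjusted p = 0.123), or 0.27 without KO 12. Ndufa4, named for complex I but a subunit of complex IV, had 188, 257 and 494 CPM in KO libraries and 170, 216 and 253 CPM in WT libraries. It was the most abundant of the complex per length (485 CPM per kb), 7 KO libraries exceeded all WT libraries, and the log2 change was 0.36 ± 0.11 (edgeR adjusted p = 0.131). Its hypoxia-inducible relative Ndufa4l2 was the lowest member per length (1.27 CPM per kb). It had 0.328, 1.09 and 3.22 CPM in KO libraries and 0.716, 1.17 and 4.86 CPM in WT libraries, with a log2 change of -0.34 ± 0.33 (-0.54 without KO 12), 1 of the 2 negative changes among the 87. Cox7a2l, a supercomplex factor, had a KO median of 131 CPM and a WT median of 127 CPM, with a log2 change of 0.12 ± 0.10, or 0.01 without KO 12.

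Several complex IV subunits come in general and tissue-specific isoforms. Cox4i1 had 306, 340 and 890 CPM in KO libraries and 274, 306 and 337 CPM in WT libraries. The KO libraries were above the WT median in 12 of 12 cases, with a log2 change of 0.33 ± 0.14 (edgeR adjusted p = 0.212), or 0.13 without KO 12. Cox6a1, Cox6b1, Cox7a2 and Cox8a had log2 changes of 0.34, 0.35, 0.38 and 0.28, all at an unadjusted p under 0.05 and all between 0.15 and 0.21 without KO 12. The muscle isoforms were highest in KO 11. Cox8b, the heart and skeletal muscle form that brown fat also expresses, had 0.610, 2.91 and 64.0 CPM in KO libraries and 0.215, 3.10 and 8.30 CPM in WT libraries. The groups overlapped except for KO 11, whose 64.0 CPM was followed by 7.19 CPM in KO 8, and the log2 change of 1.17 ± 0.64 turned to -0.18 without KO 11. Cox6a2, another muscle form and not in the authors' table, had 29.4 CPM in KO 11, 5.78 CPM in KO 3, 4.87 CPM in KO 8 and 3.41 CPM in KO 12, against at most 3.10 CPM in a WT library. Its medians were 0.983 CPM in KO libraries and 0.630 CPM in WT libraries, and its log2 change was 2.11 ± 0.80 (edgeR adjusted p = 0.183), or 0.91 without KO 11. Cox7a1, likewise not in that table, had 3.17 CPM in KO 11, against at most 0.777 CPM in a WT library. In KO 11 the muscle markers Acta1 and Atp2a1 had 1541 and 1214 CPM, and the brown fat marker Ucp1 had 259 CPM, against at most 153, 102 and 3.03 CPM in WT libraries. The other listed muscle markers were also highest in KO 11, except Mylpf, which had at most 0.31 CPM in any library. With muscle and adipocyte scores as covariates the log2 change of Cox8b was -0.62. The cause of these isoform levels was not tested. The lung form Cox4i2 and the testis form Cox6b2, neither in that table, had KO medians of 0.725 and 0.663 CPM and WT medians of 0.436 and 0.759 CPM.

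**Figure D3:**
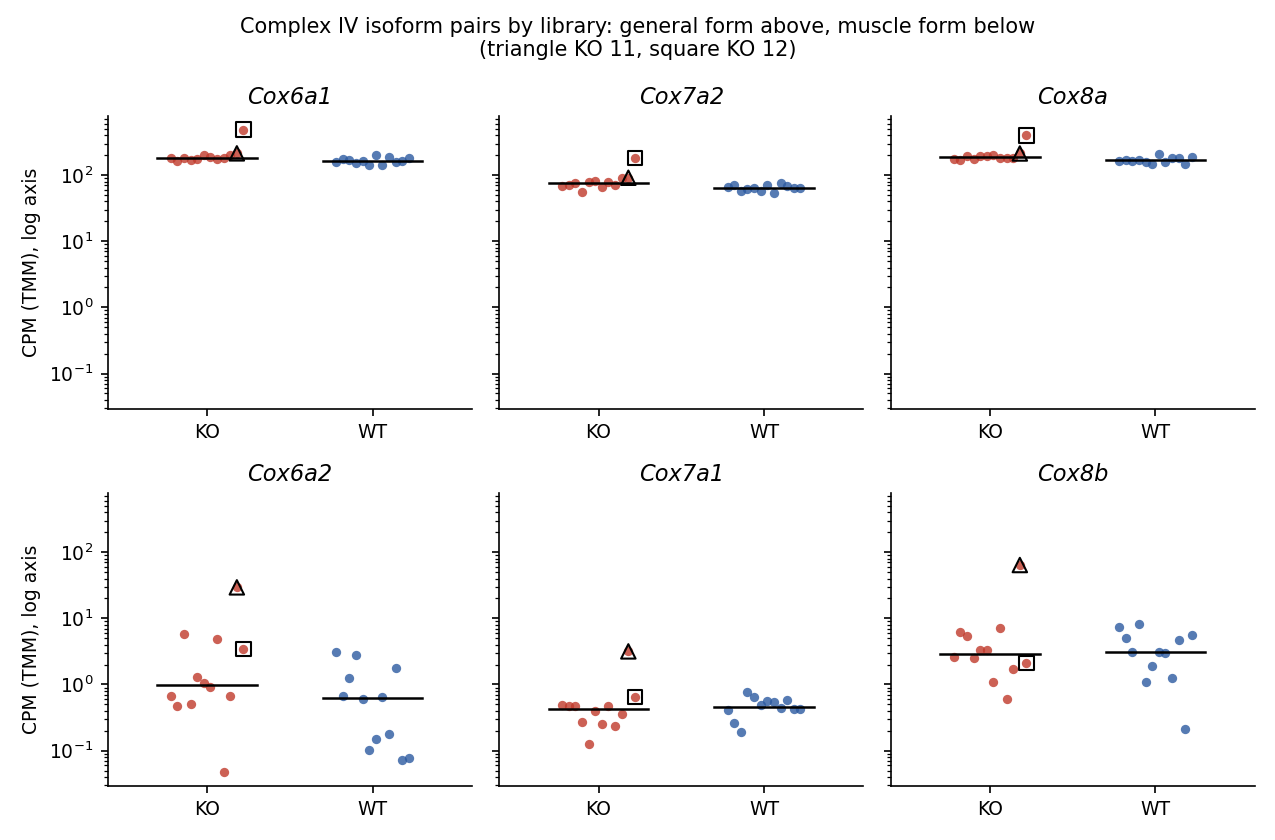
TMM-scaled CPM, on log axes, of 3 pairs of complex IV isoforms in each library, KO left of WT, the general form above and the muscle form below; black lines are medians, the triangle is KO 11 and the square KO 12. KO 12 stands highest in the general forms and KO 11 in the muscle forms, with 64.0 CPM of Cox8b.

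Complex V, the ATP synthase, had a median log2 change of 0.25 over 17 members and 0.14 without KO 12, and 11 members were higher at an unadjusted p under 0.05, or 7 without KO 12. Atp5pb, the b subunit of the peripheral stalk, had the smallest p of all 87 members. It had 257, 327 and 556 CPM in KO libraries and 224, 266 and 292 CPM in WT libraries. Of the KO libraries 10 lay above every WT library, with KO 12 and KO 10 on top, and the log2 change was 0.45 ± 0.10 (edgeR adjusted p = 0.0541), and 0.37 without KO 12 with an adjusted p of 0.0417. Atp5k, the small e subunit in the membrane, had 63.4, 68.4 and 183 CPM in KO libraries and 44.4, 57.8 and 68.7 CPM in WT libraries. All 12 KO libraries were above the WT median, 6 were above all WT libraries, and the log2 change was 0.47 ± 0.14 (edgeR adjusted p = 0.114), and 0.28 without KO 12 with an adjusted p of 0.0324. Atp5b, the catalytic beta subunit, was the most abundant of the 87 per length (594 CPM per kb). It had 949, 1147 and 2214 CPM in KO libraries and 858, 1038 and 1150 CPM in WT libraries, with 5 KO libraries above all WT libraries and a log2 change of 0.25 ± 0.11 (edgeR adjusted p = 0.223), or 0.13 without KO 12. Atp5h, the d subunit of the stalk, had medians of 174 CPM in KO libraries and 175 CPM in WT libraries, and its log2 change of 0.04 ± 0.13 was -0.09 without KO 12.

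By part of the enzyme, the 5 small membrane subunits (Atp5j2, Atp5k, Atp5l, Atp5md and Atp5mpl) had a median log2 change of 0.47, and all 5 were higher at an unadjusted p under 0.05. The 5 subunits of the F1 head had a median of 0.24 and 3 such members. The 3 genes of the c ring, which encode the same mature protein, had a median of 0.20 and 2 such members, and the 4 of the peripheral stalk had a median of 0.19 with Atp5pb the only such member. Of all tested genes 10% were higher at that p, and of those under 1000 bases 23.9%. Without KO 12 the medians of these parts, in the same order, were 0.28, 0.13, 0.08 and 0.03. With length-trend offsets they were 0.25, 0.15, 0.016 and 0.096, with 3, 1, 1 and 1 such members. The small membrane subunits are 320 to 792 bases long and had the highest median fold in KO 12, 3.08 over the WT median, against 2.13 for the F1 head. Atp5l is uncertain for the same reason as Ndufb4, at 1.87 CPM in KO libraries and 1.22 CPM in WT libraries (medians).

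The complexes were then compared library by library. KO 12 had the highest value of all 24 libraries for 81 of 87 members (93.1%), where it did for 25.4% of all tested genes. Its median fold over the WT median was 2.46 over all members, with 72 members past 2-fold. By complex the median fold in KO 12 was 2.46 for complex I, 1.72 for its assembly factors, 1.48 for complex II, 2.40 for complex III, 2.66 for complex IV and 2.65 for complex V. Cox8b was the only member below the WT median there, at 0.685-fold. Members under 1000 bases had a median fold of 2.65 in KO 12 and longer members 2.16. In the same library, cytosolic ribosomal protein genes were 1.34 and mitochondrial ribosomal protein genes 1.06 above their means on the log2 scale. Of the epithelial markers, Krt8, Krt18, Cldn3, Cldn4 and Elf3 exceeded all WT libraries there. Krt18, an epithelial keratin, had 2994 CPM, against 741 to 1869 CPM in WT libraries. Epcam, Krt19 and Cdh1 lay within the WT range. They had 1138, 755 and 753 CPM, against 795 to 1301, 230 to 1321 and 581 to 917 CPM. The part of gene length and of epithelial content in the level of KO 12 was not tested.

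**Figure D4:**
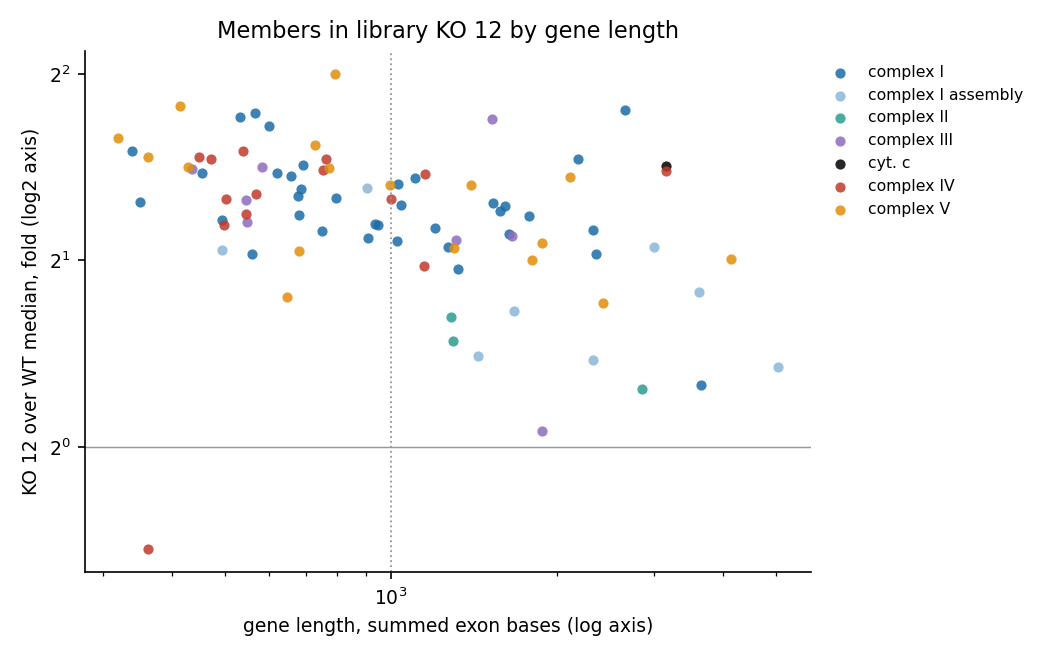
Fold of each member in KO 12 over the WT median (log2 axis) against exon length (log axis), coloured by complex, with a dotted line at 1000 bases. Most members lie above 2-fold; those under 1.5-fold, Cox8b apart, are longer than 1000 bases and include Sdha, Sdhc, Ndufs1 and Uqcrc2.

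KO 11 was next, with a median fold of 1.35 over all members and 83 of 87 members above the WT median. There complex II had the highest median fold, 1.55, followed by complex III at 1.47, complex I at 1.38, complex IV at 1.34 and complex V at 1.25. A fit with the epithelium score as covariate left 55 of 87 members higher at an unadjusted p under 0.05 (9.42% of tested genes), with a median log2 change of 0.24. Outside KO 11 and KO 12, the number of members above their WT median ran from 43 in KO 4 to 82 in KO 6. In WT libraries it ran from 3 in WT 20 to 78 in WT 19, with a median of 43, against a median of 75 in KO libraries. WT 20 was the lowest of all 24 libraries for 38 members, and WT 19 was the highest WT library for 45 members. For 79 members (90.8%) the KO median exceeded the WT median, where 51.5% of tested genes did, and the median ratio of these medians was 1.12. No member had KO and WT ranges apart, as 0.0506% of tested genes did.

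**Figure D5:**
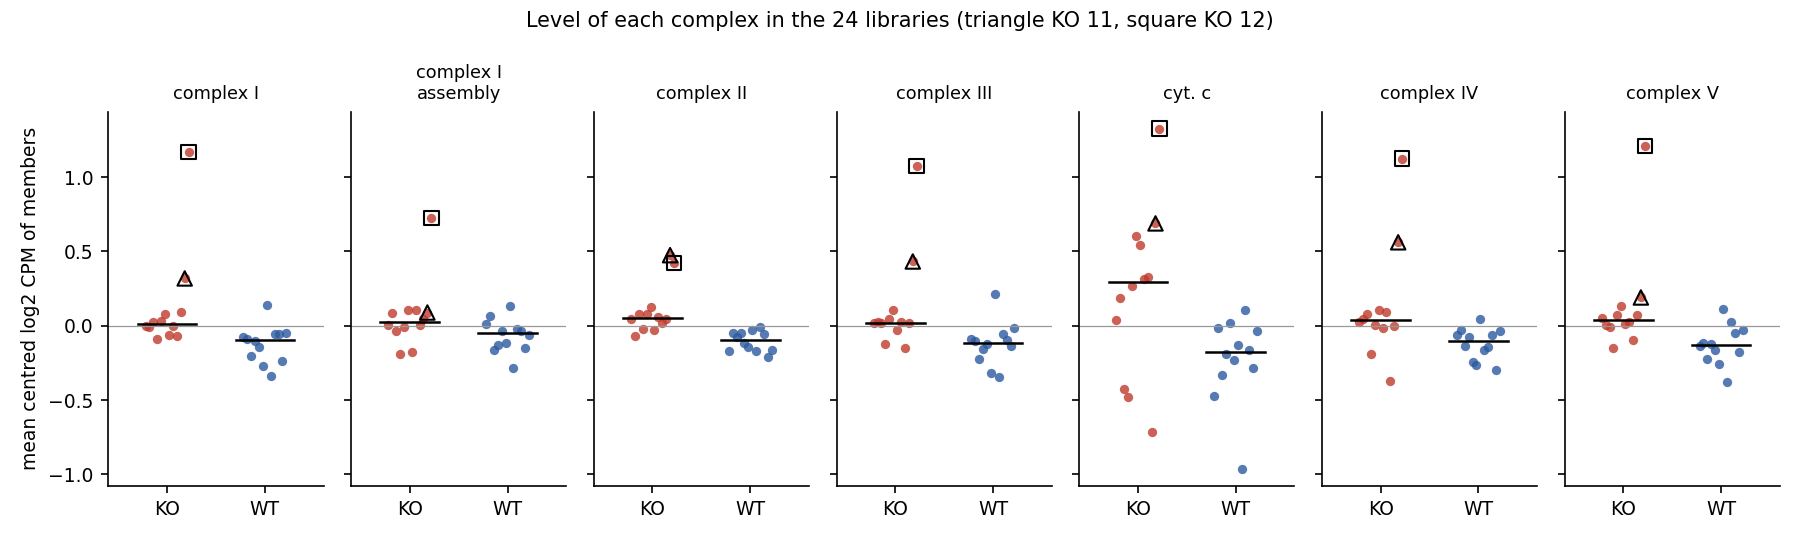
Mean over members of log2 CPM centred on each gene's mean, per complex, with 1 point for each library, KO left of WT, black lines at the medians, a triangle around KO 11 and a square around KO 12. KO 12 is at 1.07 or above in complexes I, III, IV and V and in cytochrome c but at 0.42 in complex II, where KO 11 is highest at 0.48 and 9 KO libraries lie above all WT libraries.

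Related mitochondrial genes were also described. Among all tested genes, 10% were higher and 8.9% lower at an unadjusted p under 0.05, and without KO 12 8.66% were higher. Of 35 tested assembly factors of other names, 9 (25.7%) were higher and 1 (2.86%) lower at that p, with a median log2 change of 0.12. Without KO 12, 3 (8.57%) were higher and the median was 0.07. The lower gene was Bcs1l, which inserts the Rieske protein, at a median of 14.1 CPM in KO libraries and 16.6 CPM in WT libraries. Of 13 citric acid cycle enzymes, 6 (46.2%) were higher and 0 lower, with a median of 0.20. Without KO 12, 3 (23.1%) were higher and the median was 0.12. Dld, the dihydrolipoamide dehydrogenase shared by several dehydrogenase complexes, had 137, 167 and 228 CPM in KO libraries and 118, 133 and 153 CPM in WT libraries. All 12 KO libraries lay above the WT median and its log2 change was 0.32 ± 0.07 (edgeR adjusted p = 0.0541). Of 78 mitochondrial ribosomal protein genes, 22 (28.2%) were higher and 0 lower, with a median of 0.20. Without KO 12, 21 (26.9%) were higher and 1 (1.28%) lower, and the median was 0.06. Of 81 cytosolic ribosomal protein genes, 12 (14.8%) were higher and 0 lower, with a median of 0.20. Their median length was 833 bases, and 23.9% of tested genes under 1000 bases were higher at that p. Without KO 12, 10 (12.3%) of the cytosolic ribosomal protein genes were higher, as were 17.9% of tested genes under 1000 bases. The median of the cytosolic ribosomal protein genes was then 0.01, where the respiratory chain members were at 0.15, with 43 of 87 higher.

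The 12 regulators of mitochondrial biogenesis had a median log2 change of 0.03. At an unadjusted p under 0.05, 1 (8.33%) was higher and 1 (8.33%) lower, beside 10% and 8.9% of tested genes. Esrra, which encodes ERR alpha, had 50.3, 55.9 and 108 CPM in KO libraries and 40.2, 50.6 and 66.0 CPM in WT libraries, highest in KO 12, with a log2 change of 0.25 ± 0.12 (edgeR adjusted p = 0.249), or 0.14 without KO 12. Gabpa, an ETS factor, had a median of 81.9 CPM in KO libraries and 93.7 CPM in WT libraries, with a log2 change of -0.17 ± 0.08 (edgeR adjusted p = 0.256). Nrf1, Yy1 and Tfam had log2 changes of 0.04, -0.06 and 0.03, and without KO 12 of -0.01, -0.06 and -0.02. The 13 mitochondrially encoded subunits were not analysed here.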

How the data were processed

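RNA of frozen, homogenised tumours was made into stranded mRNA libraries, per the labels. The deposited count files hold whole-number read counts per gene from featureCounts 2.0.0 on GRCm39 exons, per the file headers, with no option for strand or for reads placed at several positions, so overlapping, antisense and near-identical genes may share or lose reads. STAR and Subread are named in the submitters' processing notes. The deposited table of the authors' own KO versus WT comparison lists a log2 fold change, a log2 CPM level, an F score and a p-value with its adjusted value per gene. In the authors' deposited table, 0 of 87 members had an adjusted p under 0.05, 55 had a p under 0.05, and the median log2 fold change was 0.27.

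After filterByExpr and TMM scaling, counts of 24 libraries were tested across 15820 genes with edgeR 4.0.16 (quasi-likelihood F test, two-sided, Benjamini-Hochberg threshold 0.05, no covariate) in R 4.3.3. CPM are TMM-scaled, SE is the log2 change divided by the root of F, and centred log2 CPM used a prior count of 2. Length is the summed exon length of the count files. Symbols were matched for 44762 of 46318 gene IDs. Alternatives were RLE and upper-quartile scaling, length-trend offsets (lowess span 0.3), 2 other filters, marker scores as covariates, limma 3.58.1 voom with quality weights, DESeq2 1.42.0, and leaving out libraries; length offsets without KO 12, and the fit without WT 21 and WT 24, were added after seeing the data. Named genes were, in each class, the highest in CPM per kb, the 2 with the smallest p and the lowest in log2 change, plus the complex IV isoforms, and of each related list the gene with the smallest p and the most abundant. Ndufb5, Ndufc1, Atp5md, Uqcrfs1 and Ndufa4 windows, Gabpa, Nrf1 and Tfam were named outside that rule, after their values were seen. Members and lists were chosen with earlier results of these data known, so their direction is no independent evidence, and no test was made over a list. A simulation of the KO versus WT comparison with 15690 genes recovered 12% of changes at 1.25-fold, 44% at 1.5-fold, 68% at 2-fold and 98% at 4-fold, with 4 false calls. No batch is labelled. The 3-read floor covers counting error only, while SE also includes variation among libraries.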

Additional observations from a re-analysis of the deposited data

How the results depend on the processing

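No paired analysis was possible because the KO libraries are numbered 1 to 12 and the WT libraries 13 to 24 and share no number. RLE scaling, the absence of a filter and a filter of 1 CPM in 12 libraries left the count of called members at 0, the count at an unadjusted p under 0.05 at 55, and the direction of every named member as reported. Upper-quartile scaling, length-trend offsets, muscle and adipocyte covariates and the epithelium covariate each called 1 member, limma voom 3 and DESeq2 9. Over all genes, muscle and adipocyte covariates called 111, the fit without KO 11 and KO 12 called 31, the fit without WT 21 and WT 24 called 24 and DESeq2 418. Length-trend offsets left 31 members at an unadjusted p under 0.05, and 27 without KO 12.

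The median log2 changes depended most on length and on the last KO libraries. With length-trend offsets they were 0.12 for complex I, 0.16 for complex II, 0.0913 for complex III, 0.14 for complex IV, 0.15 for complex V, 0.014 for the complex I assembly factors and 0.13 for all members. With those offsets and without KO 12 they were 0.0861 for complex I, 0.17 for complex II, 0.0899 for complex III, 0.13 for complex IV, 0.10 for complex V, 0.016 for the assembly factors and 0.10 for all members. Without KO 11 and KO 12 they were 0.11 for complexes I, II and V, 0.10 for complex III, 0.14 for complex IV and 0.11 for all members. With voom, which gives unusual libraries less weight, they were 0.14 for complex I, 0.13 for complex II, 0.17 for complex IV and 0.15 for all members. The cause was not tested beyond these settings. A prior count of 0.5 in place of 2 moved no median beyond the spread of WT libraries.

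Leaving out each library in turn gave 0 to 4 called members, 43 to 61 members at an unadjusted p under 0.05, and medians of 0.14 to 0.32 for complex I, 0.13 to 0.34 for complex III, 0.19 to 0.38 for complex IV and 0.15 to 0.32 for all members, with each lowest value without KO 12. Without KO 3, KO 4 or WT 14 the called member was Atp5pb. Over all genes the count ran from 9 to 72. It was under 33 without KO 5 (31), KO 6 (32), KO 7 (18), KO 10 (12), KO 11 (15), WT 13 (15), WT 15 (30), WT 17 (10), WT 18 (9), WT 21 (32), WT 22 (27), WT 23 (12) or WT 24 (22).

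Of the named members' values under alternatives, 1147 kept direction and call, 20 were newly called and 21 changed sign. The log2 change of Ndufv3 turned negative without KO 11 and KO 12 (-0.0626), with voom (-0.0594) and with offsets without KO 12 (-0.0758), and ran from -0.0385 to 0.16 over single libraries left out. The log2 change of Ndufaf8 was -0.0449 with offsets and -0.0227 with offsets without KO 12, the log2 change of Ndufs8 was -0.0062 and -0.0297, and the log2 change of Cox7a2l was -0.028 and -0.0472. The log2 change of Ndufaf6 was 0.0167 with muscle and adipocyte covariates and ran from -0.14 to 0.0163 over single libraries left out. The log2 change of Atp5h was -0.15 with offsets, -0.15 with offsets without KO 12, -0.00343 with the epithelium covariate and -0.0896 without KO 11 and KO 12, and ran from -0.0886 to 0.0948 over single libraries left out. The log2 change of Cox8b was -0.62 with muscle and adipocyte covariates, -0.13 without KO 11 and KO 12 and -0.18 with DESeq2, and ran from -0.18 to 1.34 over single libraries left out.

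The simulation changed genes drawn at random and not the members, and the test recovered 12% of changes at 1.25-fold and 44% at 1.5-fold. Recovery among the members themselves was not simulated. An adjusted p over the threshold does not show equal levels. Bulk RNA gives no protein, complex assembly or respiration.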

Other observations

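The complex I subunit Ndufs5 lies in the chromosome 4 stretch that was left out, and its level was not a graded one. In KO libraries it was at 0.00 to 0.30 CPM in KO 2, KO 3, KO 5, KO 7, KO 9, KO 10 and KO 11, at 6.19, 6.23, 7.06 and 7.97 CPM in KO 1, KO 4, KO 6 and KO 8, and at 15.8 CPM in KO 12. In WT libraries it was at 0.233 CPM in WT 24, at 7.13 CPM in WT 21 and between 10.1 and 17 CPM in the other 10. The pseudogene Ndufs5-ps ran the other way. It had 20.01 to 26.6 CPM in the 7 KO libraries with the lowest Ndufs5, 9.35 to 12.7 CPM in KO 1, KO 4, KO 6 and KO 8, and 21.8 CPM in KO 12. In WT libraries it had 20.9 CPM in WT 24, 11.6 CPM in WT 21 and 0.215 to 1.00 CPM in the other 10. WT 24 and WT 21 thus had values otherwise seen in libraries labelled KO. The count of respiratory chain members at an unadjusted p under 0.05 was 55 without WT 24, 52 without WT 21 and 55 without both. Reads of a gene and its close copy can be assigned to either, and the cause was not tested.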
